A study of Mus musculus with 6 samples.

Results

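*Syt1*, *Napb*, *Vamp3*, *Cplx1* and *Unc13a* encode proteins of the machinery that primes secretory vesicles and fuses them with the plasma membrane. They were selected by gene symbol from a table of transcript levels in control and *Kap1* knockdown N2A cells, after their difference between these groups was known. The values of that contrast chose them and are therefore given as a description, with standard errors (SE) and no test. The 5 genes are read by 7 of the 6951 transcript clusters on the table and are 5 of its 5322 named genes. A transcript cluster is the set of array probes that reads a transcript. *Unc13a* has 3 transcript clusters and the other genes have 1 each, and the platform annotation ties none of the 7 to a second gene.

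N2A is a mouse neuroblastoma cell line, and the comparison asks which of its transcripts change when *Kap1* is depleted. The control group was 3 samples of N2A cells transfected with a scrambled control construct, and the knockdown group was 3 samples that received the shA *Kap1* shRNA expression construct. *Kap1*, whose official symbol is *Trim28*, encodes a corepressor that is brought to chromatin by zinc finger proteins and recruits enzymes that silence it. Both groups received 1.5 µg of shRNA plasmid and a plasmid for hygromycin resistance, entered hygromycin after 3 days and were harvested after 7 days in the drug, so every sample is a pool of resistant cells rather than a clone. No source states that the 3 samples of a group were separate transfections, so errors rest on the spread between samples, which may be technical. The SEs are moderated, which draws the spread of each transcript cluster towards that of the table as a whole. The agent that separates the groups is the hairpin encoded by the following oligonucleotide, in which capitals mark the 17-base stretch whose reverse complement recurs after the loop.

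*Kap1* shA top strand: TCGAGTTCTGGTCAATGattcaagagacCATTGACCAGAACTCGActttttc

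Neurotransmitter is released when the vesicle SNARE, a VAMP protein, zippers with syntaxin and SNAP-25 of the plasma membrane. Munc13 proteins, encoded by the *Unc13* genes, open syntaxin and make docked vesicles ready. Complexin clamps and activates the assembled SNARE complex, synaptotagmin binds calcium and triggers fusion, and the SNAP proteins encoded by *Napa*, *Napb* and *Napg* then recruit the ATPase NSF to pull spent complexes apart. Most of these proteins are typical of neurons and endocrine cells, whereas VAMP3, also called cellubrevin, serves endosomal recycling and secretion in many cell types. The name synaptic therefore suits *Syt1*, *Napb*, *Cplx1* and *Unc13a* better than *Vamp3*.

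The promoters of these genes are shown because the members did not share a direction, and because *Unc13a* holds a sequence pattern that few promoters have. RefSeq promoter windows of GRCm38.p6, from 250 bases before to 50 after the start site, were found for 4 of the 5 genes. All lie on the minus strand and are printed 5′ to 3′ along the gene. Capitals mark GC boxes (GGGCGG), the core of the cyclic AMP response element (TGACG), and the left (TTCAGCACC) and right (GGACAG) arms of RE1, the element bound by the neuronal gene repressor REST, each searched on both strands. The core is contained in the full response element, and no marked match overlaps another.

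*Napb*, chr2:148732371-148732670: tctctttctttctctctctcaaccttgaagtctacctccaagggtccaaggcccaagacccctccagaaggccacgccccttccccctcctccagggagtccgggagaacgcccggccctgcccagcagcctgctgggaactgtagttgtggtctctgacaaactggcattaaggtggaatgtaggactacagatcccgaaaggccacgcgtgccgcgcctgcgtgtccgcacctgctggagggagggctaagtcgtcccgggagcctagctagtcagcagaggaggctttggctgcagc

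*Syt1*, chr10:109010926-109011225: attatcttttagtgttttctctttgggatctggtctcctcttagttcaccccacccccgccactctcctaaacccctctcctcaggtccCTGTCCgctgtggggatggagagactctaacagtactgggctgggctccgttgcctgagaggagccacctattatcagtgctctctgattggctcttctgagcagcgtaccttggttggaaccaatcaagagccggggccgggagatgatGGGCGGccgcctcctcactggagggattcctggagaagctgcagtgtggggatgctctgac

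*Cplx1*, chr5:108549978-108550277: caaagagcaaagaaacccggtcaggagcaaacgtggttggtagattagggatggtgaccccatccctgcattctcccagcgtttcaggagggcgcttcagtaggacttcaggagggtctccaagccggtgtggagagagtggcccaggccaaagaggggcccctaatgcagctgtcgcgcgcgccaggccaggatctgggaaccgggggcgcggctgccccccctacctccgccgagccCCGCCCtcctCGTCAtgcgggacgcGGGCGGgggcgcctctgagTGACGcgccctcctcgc

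*Unc13a*, chr8:71671708-71672007: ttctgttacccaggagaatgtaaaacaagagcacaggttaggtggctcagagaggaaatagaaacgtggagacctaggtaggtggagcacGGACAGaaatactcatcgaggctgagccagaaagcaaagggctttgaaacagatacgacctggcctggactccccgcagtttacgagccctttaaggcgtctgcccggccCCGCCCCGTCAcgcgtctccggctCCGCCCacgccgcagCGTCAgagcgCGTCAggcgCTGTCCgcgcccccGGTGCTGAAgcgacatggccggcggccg

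The *Unc13a* window held 2 GC boxes, 3 cores of the cyclic AMP response element, of which 1 directly adjoins a GC box, 1 left arm and 2 right arms of RE1. A right arm and the left arm lie on the same strand with 8 bases between them. Both arms on 1 strand with at most 12 bases between them were found in 13 of 32851 promoter windows, or 0.0396%. The pattern was singled out because *Unc13a* holds it, so its rarity is a description and no test. Whether arms 8 bases apart form an element that REST binds was not examined. The *Cplx1* window held 2 GC boxes and 2 such cores, the *Syt1* window shown held 1 GC box and 1 right arm, and the *Napb* window held none of these letters, nor did another annotated *Syt1* window. Among all windows, 35.7% held a GC box, 20.8% the core TGACG, 0.371% the left arm and 22.2% the right arm of RE1. The full element TGACGTCA, present in 1.79% of windows, was in none of the members' windows. The GC content was 61.3% for *Napb*, 56.7% for *Syt1*, 67.0% for *Cplx1* and 61.3% for *Unc13a*, against a median of 52.7% for all windows. *Unc13a* had 27 CpG dinucleotides, *Cplx1* 24, *Napb* 13 and *Syt1* 8, where the median window had 7. The other *Syt1* window, which is not printed, had a GC content of 44.0% and 6 CpG dinucleotides. These matches describe the letters only, and binding was not measured here.

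The knockdown was checked first. *Trim28* had intensities of 3377, 3443 and 3267 on the control arrays and of 866, 861 and 936 on the knockdown arrays, which left 26.4% of the control mean. Log2 intensities correlated at 0.996 to 0.998 between arrays of a group and at 0.937 to 0.942 between groups. All 6951 transcript clusters have an adjusted p of at most 0.0365 in limma with Benjamini-Hochberg adjustment, and in 100% of them the groups do not overlap, so the table holds only transcript clusters that differ between the groups. Nonoverlap of the members, and any adjusted p below, carry that selection. A call here needs both an adjusted p no higher than 0.05 and a change of 1.4-fold or more, which is 0.49 on the log2 scale. Of the 7 transcript clusters, 3 were higher and 3 lower past both limits and 1 was under the fold, where 15.0% of all transcript clusters were higher and 17.6% lower. By gene, with the brightest transcript cluster for each, 3 were higher, 1 was lower and *Unc13a* was under the fold, beside 15.8% of named genes higher and 16.5% lower. Since the members were picked for these changes, nothing is read from the shares.

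Among the calcium sensors, *Syt1*, which encodes synaptotagmin 1, the sensor for fast synchronous release, was lower after *Kap1* knockdown. Its intensity was 4030, 3914 and 3941 on the control arrays and 2727, 2817 and 2898 on the knockdown arrays. Arrays within a group lay close together, and every knockdown array was below every control array. The means were 3962 ± 60.7 and 2814 ± 85.5 (SD, n = 3), a log2 fold change of -0.49 (SE 0.05) that left 71.0% of the control level. Of all transcript clusters, 68.3% changed by less in either direction. A lower intensity in pooled cells can come from fewer cells with the transcript or from less of it in each cell, and these cannot be told apart.

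*Napb* had the largest change of the 5 genes. It encodes beta-SNAP, the brain form of the adaptor that links NSF to spent SNARE complexes. Control arrays read 781, 719 and 596, and knockdown arrays 1577, 1583 and 1614. The knockdown arrays were nearly equal, while control array 3 was low. Means were 699.0 ± 94.2 and 1591 ± 19.9 (SD, n = 3), a 2.29-fold higher level and a log2 fold change of 1.20 (SE 0.09). This was further from 0 than 95.4% of the table. Control array 1 was the highest of its group for 58.9% of transcript clusters on the table, as it was for *Napb*. The log2 fold change of *Napb* was 1.22 with median centring and 1.24 with quantile normalization. It was 1.28 without control array 1 and 1.09 without control array 3. Beyond these settings, the part of such differences between arrays in the change was not tested.

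*Cplx1*, which encodes complexin 1, was higher after knockdown by an amount that differed between arrays. It read 885, 868 and 871 on the control arrays and 1180, 1194 and 1444 on the knockdown arrays. Knockdown array 3 stood apart from the other two, and even the lowest knockdown array was above all controls. Knockdown array 3 was the highest of its group for 49.3% of transcript clusters. With median centring or quantile normalization, which put the arrays on a common level, the log2 fold change of *Cplx1* was 0.56 in either case. Beyond these settings and leaving the array out, the part of such differences in the change was not tested. The means of 875.0 ± 9.07 and 1273 ± 149 (SD, n = 3) differed by 0.53 on the log2 scale (SE 0.08), or 1.45-fold. Without knockdown array 3 the log2 fold change was 0.44, under the 1.4-fold limit. *Cplx2*, which encodes the other complexin on the table, had its highest value on the same array, with 194, 173 and 189 in the control and 222, 228 and 278 after knockdown, and its log2 fold change of 0.38 (SE 0.09) was under the fold. The log2 ratio of *Cplx1* to *Cplx2* within an array moved by 0.17, 0.15 and 0.14 on knockdown arrays 1, 2 and 3 against the control mean. On control arrays 1, 2 and 3 it lay at -0.05, 0.09 and -0.04 from that mean. The ratio was thus nearly the same on the 3 knockdown arrays but differed more between the control arrays.

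*Vamp3* encodes the vesicle SNARE of the group. Its intensity was 1227, 1158 and 1170 on the control arrays and 1603, 1711 and 1672 on the knockdown arrays. Arrays within each group were alike and the groups were apart. The means were 1185 ± 36.9 and 1662 ± 54.7 (SD, n = 3), a log2 fold change of 0.49 (SE 0.05), or 1.4-fold, which 67.7% of transcript clusters fell short of in size.

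*Unc13a*, which encodes Munc13-1, the priming factor, was lower on every knockdown array in all 3 of its transcript clusters, though by unequal amounts. The brightest, 10579554, read 2368, 2283 and 2182 in the control and 1861, 1861 and 1922 after knockdown. Transcript cluster 10579550 read 710, 649 and 583 in the control and 397, 464 and 498 after knockdown. Transcript cluster 10579548 read 229, 232 and 234 in the control and 169, 168 and 156 after knockdown. No knockdown array reached a control array in any of the 3. The log2 fold change was -0.28 (SE 0.05) for 10579554, with 82.6% of the control level left, -0.52 (SE 0.10) for 10579550 and -0.50 (SE 0.05) for 10579548. Only the last 2 were past 1.4-fold. The change of 10579550 was further below 0 than that of 10579554, but this gap leaned on knockdown array 1, without which the log2 fold changes were -0.42 and -0.27. Against 10579554 within an array, 10579550 lay at -1.74, -1.81 and -1.90 (log2) in the control and at -2.23, -2.00 and -1.95 after knockdown. The arrays of 10579550 spread most of the 7, with a pooled SD of 0.155 (log2) against a median of 0.073 for the table. The 3 share the same RNA samples and are not replicates of each other. The study's gene list names 10579548 for both *Colgalt1*, the gene beside *Unc13a*, and *Unc13a*, so its source is uncertain. The transcript cluster annotated to *Colgalt1* alone read 2540, 2625 and 2542 in the control and 1902, 1916 and 1961 after knockdown, a log2 fold change of -0.42 (SE 0.05).

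**Figure D1:**
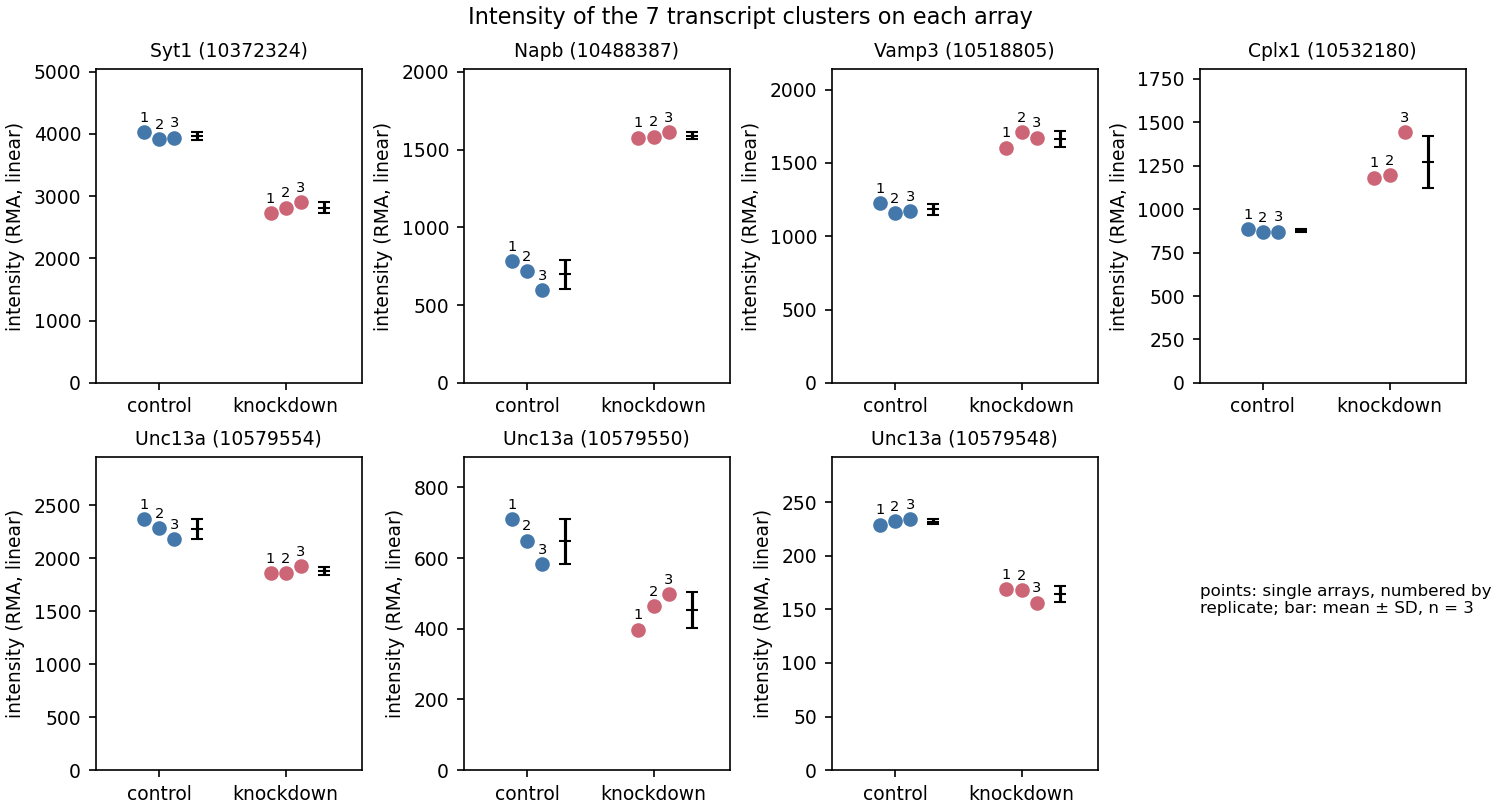
RMA intensity on a linear scale from 0 for each of the 7 transcript clusters on every array, with points numbered by replicate and the mean ± SD of 3 arrays beside each group. *Napb* had control values of 596 to 781 and knockdown values of 1577 to 1614, and knockdown array 3 of *Cplx1*, at 1444, stands above the other two.

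The spread between arrays differed among the members. Pooled SDs of log2 intensity were 0.035 for *Syt1*, 0.046 for *Vamp3*, 0.046 for *Unc13a* (10579554), 0.116 for *Cplx1* and 0.142 for *Napb*. *Syt1* and *Vamp3* were thus measured more tightly than the median transcript cluster, and *Cplx1* and *Napb* less so. The moderated SEs are therefore wider for *Syt1* and *Vamp3*, and narrower for *Cplx1* and *Napb*, than their own arrays alone would give. *Syt1*, *Vamp3* and *Cplx1* also lay close to the 1.4-fold limit, so their calls depended on settings although their direction never did. Over 11 alternatives, which changed the table, the scaling, the block or the pseudocount or left out 1 array, *Syt1* ranged from -0.52 to -0.46 on the log2 scale and was under the fold in 4. *Vamp3* ranged from 0.47 to 0.52 and was under the fold in 5, and *Cplx1* ranged from 0.44 to 0.59 and was under it in 1. *Napb* ranged from 1.09 to 1.28 and was past 1.4-fold in all 11, and *Unc13a* (10579554) ranged from -0.31 to -0.25 and was under it in all 11. *Unc13a* 10579550 was under the fold in 3 alternatives and 10579548 in 4.

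**Figure D2:**
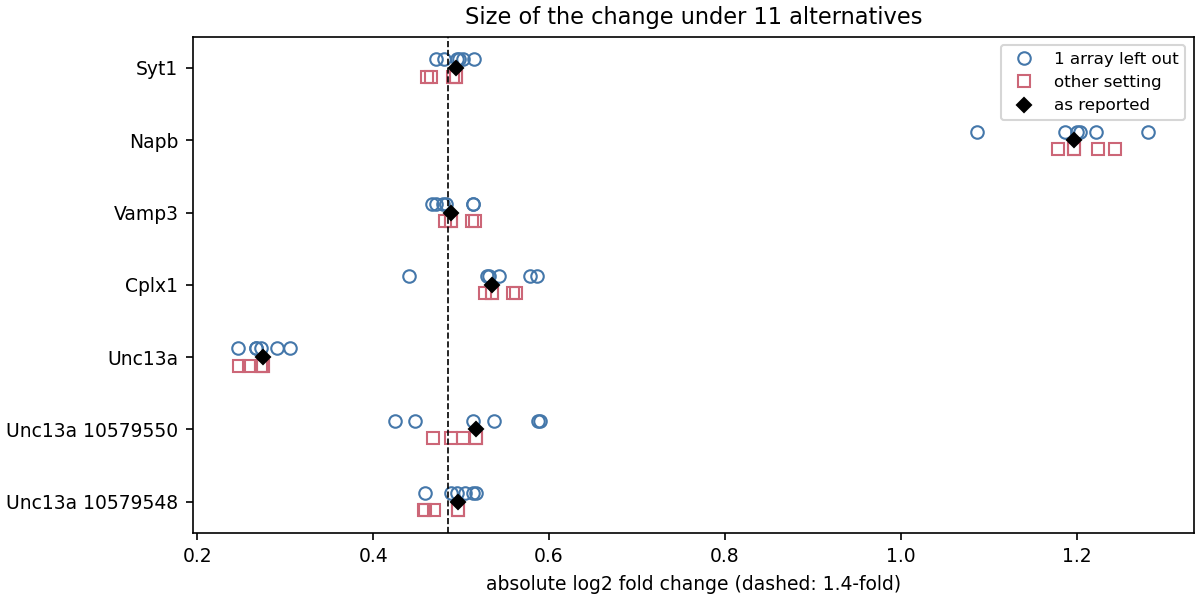
Absolute log2 fold change of each member as reported (diamonds), with 1 array left out (circles) and under other settings (squares), where Unc13a without a number is 10579554 and the dashed line is 1.4-fold. *Napb* stays to the right of the line, *Unc13a* 10579554 to the left, and the others lie across it.

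Members were next set beside other genes of their families on the table. All 3 SNAP genes were listed. *Napg*, which encodes gamma-SNAP, rose from 397, 353 and 318 to 545, 538 and 551, a log2 fold change of 0.62 (SE 0.08, limma adjusted p = 6.50e-05). *Napa*, which encodes the broadly used alpha-SNAP, read 795, 730 and 730 in the control and 650, 628 and 650 after knockdown, a log2 fold change of -0.23 (SE 0.05) that was under the fold. The 3 SNAP genes thus lay in the order *Napb*, *Napg*, *Napa* by their change. The log2 ratio of *Napb* to *Napa* within an array moved by 1.39, 1.45 and 1.43 on knockdown arrays 1, 2 and 3 against the control mean.

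Of 17 synaptotagmin genes in RefSeq, 6 were on the table. *Syt6* fell from 591, 565 and 656 to 261, 301 and 292 (log2 fold change -1.09, SE 0.07, limma adjusted p = 1.58e-06). *Syt4*, a synaptotagmin of dense core vesicles, rose from 1238, 1280 and 1367 to 1828, 2061 and 1874 (log2 fold change 0.57, SE 0.06, limma adjusted p = 3.58e-05). The log2 ratio of *Syt1* to *Syt4* within an array thus dropped by 1.06. *Syt5* had a log2 fold change of 0.36, *Syt17* of 0.28 and *Syt11* of -0.22, all under the fold. Of 8 *Vamp* genes, *Vamp3*, *Vamp7* and *Vamp1* were listed, with log2 fold changes of 0.49, 0.32 and -0.27. *Vamp2*, the main vesicle SNARE of brain synapses, is not on the table and has no value here. Of 4 *Unc13* genes only *Unc13a* was listed, and of 4 complexin genes *Cplx1* and *Cplx2*.

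A wider list of 149 genes of vesicle release and recycling was then read. It was chosen with earlier results of these data known. On the table were 49 of the 149 genes, and 44 of the 144 that are not members. Of these 44, 10 rose, 4 fell and 30 were under the fold, beside 15.8% of named genes higher and 16.5% lower. The same shares apply to the counts of rises and falls by role below. For counts of genes above or below 0, no share over all named genes is given. Of the 44, 22 lay above 0 and 22 below, and their median log2 fold change was -0.00, against 0.15 for all named genes. No transcript cluster changed by less than 0.12 (log2), so this -0.00 only lies midway between the genes above and below 0 and is no typical change. *Snap25*, the plasma membrane SNARE that synaptotagmin 1 works with, fell from 5310, 4853 and 4933 to 3514, 3609 and 3567 (log2 fold change -0.50, SE 0.05, limma adjusted p = 2.67e-05). Its log2 fold change and that of *Syt1* differed by 0.00. Of the other SNARE genes, *Stx2*, with a log2 fold change of 0.33, was under the fold, as were *Vamp1* and *Vamp7*.

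Among 5 nonmember regulators of the SNARE complex, 2 rose and 3 were under the fold. The 2 were *Napg* and *Stxbp5l*, which encodes tomosyn-2, an inhibitor of SNARE assembly, with a log2 fold change of 0.79 (SE 0.11, limma adjusted p = 1.37e-04). Among 9 nonmember genes of priming and the active zone, 3 rose and 6 were under the fold. The 3 were *Rab3d* (log2 fold change 0.63), which encodes a vesicle GTPase of secretory cells, *Apba1* (0.62), which encodes the Munc18 partner Mint1, and *Erc2* (0.58), which encodes an active zone scaffold. Of the 9, 5 lay above 0 and 4 below it, as *Unc13a* did. The 4 were *Rab3c* (log2 fold change -0.48), *Bsn* (-0.46), which encodes the scaffold Bassoon, *Ppfia1* (-0.34) and *Cask* (-0.30), all under the fold, as was *Rab3a* (0.48).

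Of 9 listed genes of the vesicle membrane, 1 rose, 1 fell and 7 were under the fold. By sign alone, 7 of the 9 lay below 0. *Sv2c*, which encodes a vesicle glycoprotein, fell from 4459, 4298 and 4034 to 2527, 2643 and 2741 (log2 fold change -0.69, SE 0.06, limma adjusted p = 5.71e-06), and *Syngr1*, which encodes synaptogyrin 1, rose by 0.52 on the log2 scale. *Syp*, which encodes synaptophysin, had a log2 fold change of -0.26, under the fold. Of 8 genes of vesicle endocytosis, *Dnm3*, which encodes a dynamin, rose from 61, 57 and 62 to 355, 339 and 345, a log2 fold change of 2.53 (SE 0.05, limma adjusted p = 2.80e-09) and the largest of the 49 genes. *Synj2*, which encodes a synaptojanin, fell by 0.72 on the log2 scale. Of 3 calcium channel genes, *Cacnb1* rose by 0.50 on the log2 scale, and *Cacna1c* and *Cacna1b*, with log2 fold changes of -0.35 and -0.19, were under the fold. *Rph3al*, which the list placed with the calcium sensors though this role was not examined, rose by 0.52 on the log2 scale.

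**Figure D3:**
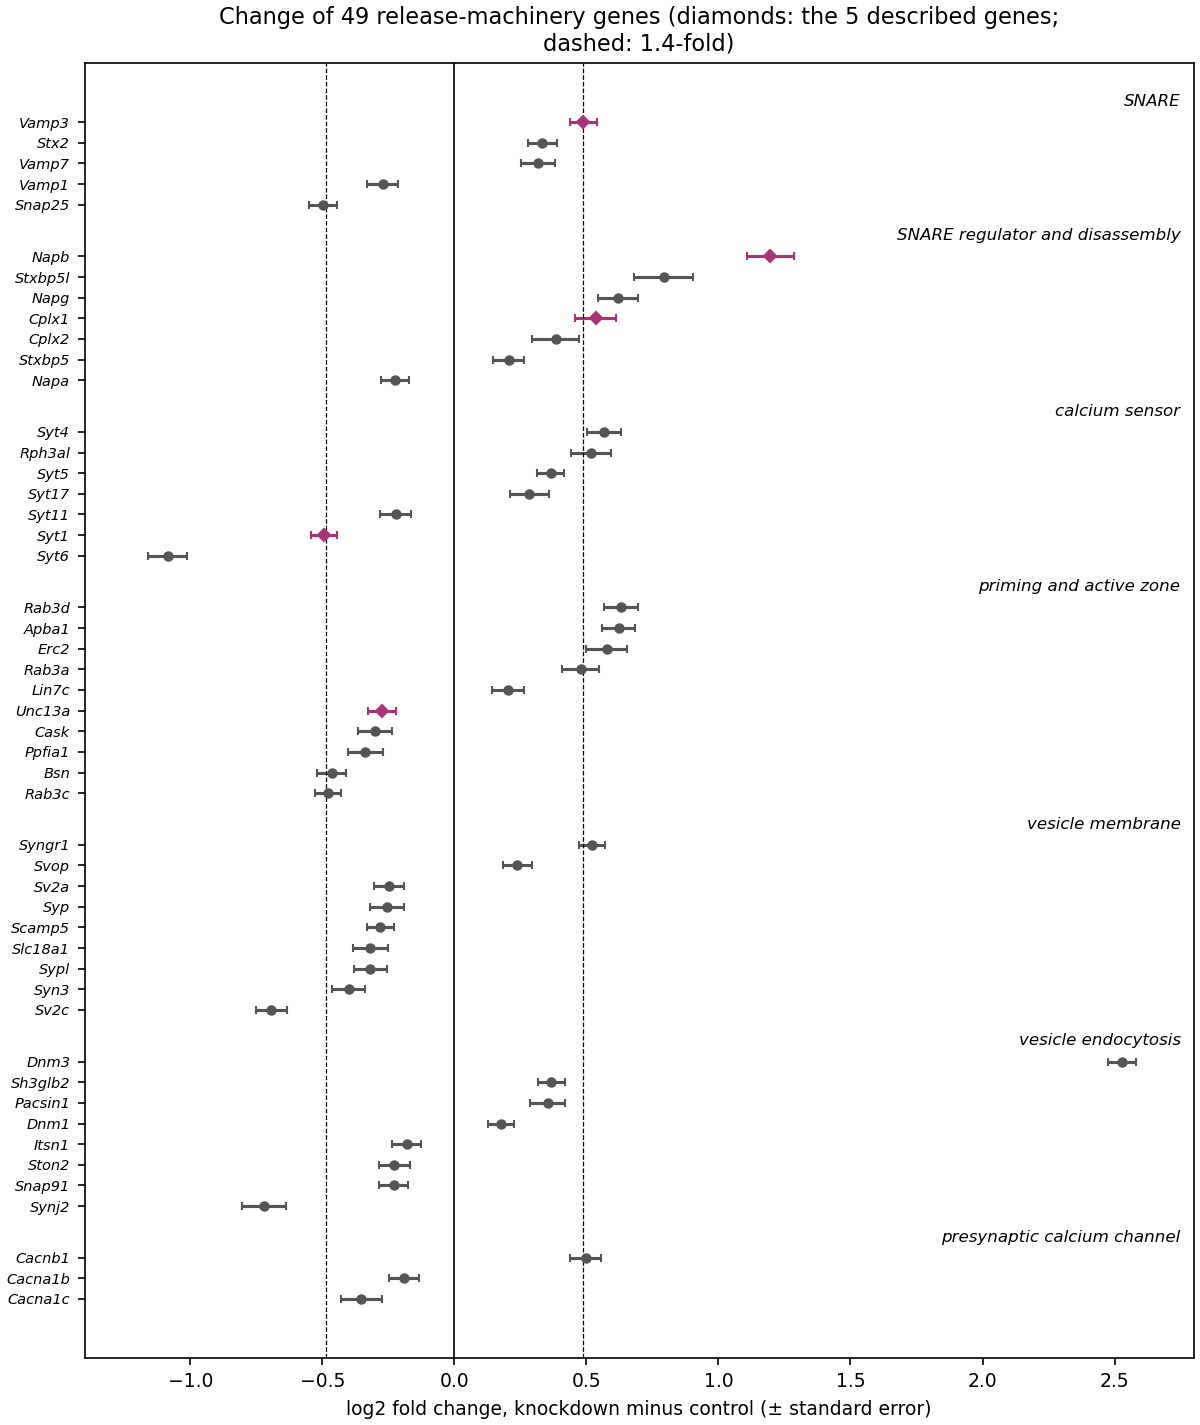
Log2 fold change, knockdown minus control, with its SE for the 49 genes of vesicle release and recycling on the table, grouped by role, with the 5 members as diamonds and 1.4-fold as dashed lines. *Napb*, at 1.20, is second to *Dnm3*, at 2.53, and *Syt1*, at -0.49, and *Snap25*, at -0.50, lie at nearly the same place.

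Chromosomes differed in the direction of their listed genes, so each member was set beside its own. RefSeq GRCm38.p6 gave the chromosome and the order of genes. *Napb*, on chromosome 2, was 0.96 (log2) above the median of the 438 other listed genes there and above 98.6% of them. *Syt1*, on chromosome 10, differed by -0.73 (log2) from the median of 252 genes, 60.3% of which were above 0, and 10.7% of them were lower than *Syt1*. Of the 10 nearest listed neighbours of *Napb*, 8 were above 0 and 2 below, with a median log2 fold change of 0.43 and a highest of 0.84. The 2 below 0 were the closest on either side, *A530006G24Rik* and *Apmap*, at -0.50 and -0.66. Of the 10 neighbours of *Syt1*, 6 were above 0 and 4 below, with a median of 0.27, and the closest, *Pawr* and *E2f7*, had log2 fold changes of 0.28 and -0.41.

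The other members were nearer to the median of their chromosome. On chromosome 5, 87.2% of the 407 other listed genes were above 0, with a median log2 fold change of 0.37, and *Cplx1* was 0.16 above it. The chromosome 5 median was 0.33, 0.38 and 0.40 on knockdown arrays 1, 2 and 3, and 9 of the 10 nearest listed neighbours of *Cplx1* were above 0, *Gm10419* and *Zfp605* among them at 0.52 and 0.26. On chromosome 8, by contrast, 30.2% of 278 genes were above 0, with a median of -0.27, and *Unc13a* (10579554) differed from this median by -0.01. The other *Unc13a* transcript clusters, 10579550 and 10579548, lay further below that median, at -0.52 and -0.50. Of the 10 neighbours of *Unc13a*, 8 were below 0, among them *Colgalt1* and *Zfp961*, at -0.42 and -0.48. *Vamp3*, on chromosome 4, was 0.24 above the median of 309 genes, and 7 of its 10 neighbours were above 0, among them the closest, *Per3* and *Camta1*, at 0.72 and 0.59. The table holds only genes listed for a difference, and the part of these chromosome-wide shifts in the members' changes was not tested.

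**Figure D4:**
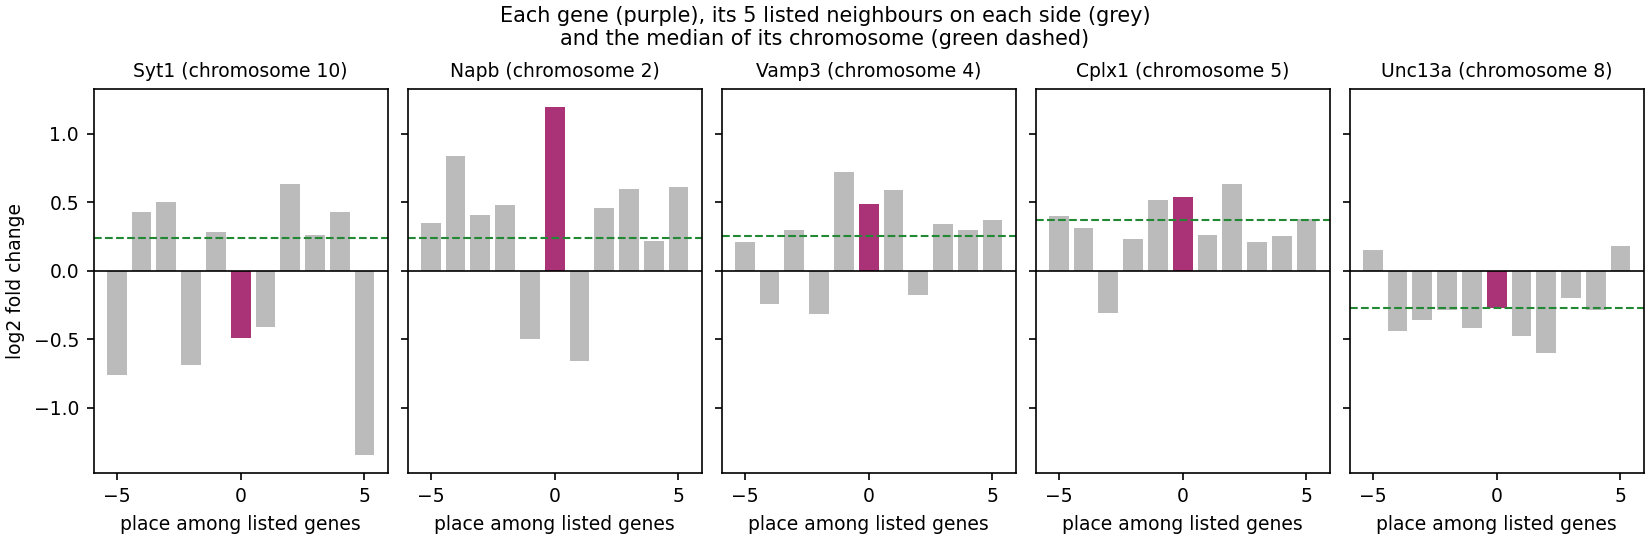
Log2 fold change of each member (purple), of the 5 nearest listed genes on either side in chromosome order (grey), and the median of the other listed genes of the chromosome (green dashed line). *Napb* and *Syt1* stand away from the line, and *Unc13a* reaches it among mostly lower neighbours.

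The profiles over the 6 arrays most like each member were found by the root mean square (RMS) difference in log2 intensity, each gene taken against its control mean. For *Syt1* they were *Ergic1* (0.0145) and *Prrt3* (0.0196), for *Vamp3* *Pmpcb* (0.015) and *Eif2a* (0.0186), and for *Unc13a* *Tmod3* (0.0134) and *Gsr* (0.0136). For *Napb* they were *Tlr3* (0.0274), with 141, 128 and 102 in the control and 280, 285 and 289 after knockdown, and *Zcchc8* (0.0403). For *Cplx1* they were *Hcn4* (0.0299), which read 605, 613 and 613 in the control and 835, 843 and 968 after knockdown, and *Psd* (0.0435). Since these genes were picked for their likeness on the same arrays, the arrays on which they and the member are high or low match by selection.

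The cell type was checked against marker lists, which are summed over listed genes only. Of 31 neuroblastoma and neuron markers, 22 were on the table. Of these 22, 3 rose and 10 fell, beside 15.8% of named genes higher and 16.5% lower. The summed intensity of the 22 was 54471 to 57133 in the control and 44457 to 46222 after knockdown. *Map2*, *Mapt*, *Dcx*, *Nefl*, *Nefm*, *Elavl3* and *Stmn3* are not on the table and have no value here. Of 8 oligodendrocyte markers none were listed, of 8 astrocyte markers 2 (1 rose and 1 fell), of 7 microglia markers 1 (under the fold), of 9 fibroblast markers 3 (all under the fold) and of 7 Schwann cell markers 3 (2 rose and 1 fell). Their sums were 1361 to 1420 and 913 to 1014 for astrocytes, 132 to 149 and 94 to 102 for microglia, 14238 to 14427 and 12207 to 12411 for fibroblasts, and 4447 to 4554 and 1990 to 2249 for Schwann cells, in the control and after knockdown. The Schwann cell sum follows its brightest marker *Ngfr*, with means of 4171 and 1535, while *Erbb3* and *Egr2* rose 1.76-fold and 1.68-fold, and the astrocyte sum follows *Sox9*, with means of 1116 and 481.0, while *Aldoc* rose 1.78-fold. The neuronal sum weighs most on its brightest markers, *Prph* (means of 7900 and 5433) and *Chga* (6639 and 4506). The others of the 10 that fell were *Isl1*, *Gata3*, *Mycn*, *Phox2a*, *Scg3*, *L1cam*, *Ncam1* and *Ina*. Their log2 fold changes ran, in this order, from -1.83 to -0.53. *Th* (log2 fold change 1.15), *Dbh* (0.67) and *Gata2* (0.50) rose. The sums of all cell types with a listed marker were lower after knockdown. Those other than the neuronal sum rest on 1 to 3 listed genes each, so they cannot show whether the fall is particular to neurons. *Syt1* and *Unc13a* were lower as well, while *Napb*, *Cplx1* and *Vamp3* were higher. The part of these shifts in the members' changes was not tested.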

How the data were processed

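Total RNA (200 ng per sample) was labelled with biotin and hybridised to Mouse Gene ST arrays. The deposited values are intensities on a linear scale, which the authors normalised by RMA in GeneSpring and which are rounded to whole numbers. Their median per array was 505 to 553, and the number of arrays, not a read depth, limits the precision. For the array design's genome build, the sources used here give no name.

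Log2 was taken with no pseudocount, and lmFit and eBayes of limma 3.58.1 (R 4.3.3), a tool also named in the submitters' processing notes, compared the 3 knockdown with the 3 control arrays, with Benjamini-Hochberg adjustment over 6951 transcript clusters. The fit was tested on simulated data in which most transcript clusters were unchanged, unlike this table. That test therefore checks the code and not the calls made here. Platform annotation named 5733 transcript clusters for 1 gene, 384 for several and 834 for none, and 5726 matched RefSeq by gene identifier. Counts by gene use the brightest transcript cluster.

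The members and gene lists were chosen with earlier results of these data known. Genes named are the members with their families, *Trim28*, up to 4 changed genes per role with the largest change, the 2 closest profiles and the nearest neighbours. Chosen after their values were seen were a few genes under the fold and some of the markers. Alternatives were median centring, the unrounded table, a replicate block, quantile normalization, trended and robust eBayes, a filter at a mean log2 intensity of 6, a pseudocount of 16, other thresholds, any transcript cluster of a gene, and each array left out. Gene set tests were not run.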

Additional observations from a re-analysis of the deposited data

How the results depend on the processing

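No alternative reversed a member. The log2 fold change of *Syt1* was under the 1.4-fold limit with median centring (-0.47), with quantile normalization (-0.46), without control array 1 (-0.48) and without knockdown array 1 (-0.47). *Vamp3* was under it with a pseudocount of 16 (0.48), without control arrays 2 (0.47) or 3 (0.48), and without knockdown arrays 2 (0.47) or 3 (0.48). *Cplx1* was under it without knockdown array 3 (0.44). *Unc13a* 10579550 was under it without control array 1 (-0.45), without knockdown array 1 (-0.42) and with quantile normalization (-0.47), and 10579548 without knockdown array 3, with either other scaling and with the pseudocount (-0.47 to -0.46). The 1.4-fold limit called 2268 transcript clusters, and a fold of at least 2 called 505, of which 153 were higher and 352 lower. At that fold, 2 listed genes of vesicle release were higher and 1 was lower, against 13 and 5 at 1.4-fold with the members counted. Lower genes numbered 3 with median centring and 3 with a limit of 0.5 on the absolute log2 fold change. With each array left out, higher genes numbered 11 to 14 and lower genes 3 to 6, the lowest count without control array 1, and transcript clusters numbered 2244 to 2348. Median centring called 1217 transcript clusters higher and 1123 lower, and quantile normalization 1207 and 1135, against 1043 and 1225. Median log2 intensities were 9.11, 9.05 and 8.98 on the control arrays and 8.99, 9.03 and 9.04 on the knockdown arrays. Median centring sets them equal, which moves every log2 fold change upwards by the same amount, for *Syt1* from -0.494 to -0.466. For quantile normalization the cause was not tested.

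With the replicate number as a replicate block, 2268 transcript clusters, 13 higher and 5 lower genes were called, as without it. In this balanced design the block cannot move a fold change, and the fold alone decides the calls, so the equal counts say nothing of stability. Deviations of same-numbered samples from their group mean correlated at -0.168, -0.132 and 0.0422. Taken from means of 3 arrays, these values cannot show whether same-numbered samples shared a step of the experiment. With 3 arrays per group, small differences near the fold limit could not be placed on either side of it.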
